A study of Mus musculus with 4 samples.

Results

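Spinous interfollicular keratinocytes are the epidermal cells between the hair follicles that have left the basal layer and made the differentiation keratins, but have not yet reached the granular layer. Here they were selected on their own counts, and 8362 of the 34150 barcodes kept from 4 mice met the rule. A barcode was kept if it held at least 1200 counts with at most 20% in mitochondrial genes. A member had at least 20 counts of Krt1 and Krt10 together, and these exceeded 200% of its counts of Krt5 and Krt14. It also had fewer than 2 counts of Krt79, fewer than 10 of Cst6, fewer than 20 over all Lce1 genes, and fewer than 5 over F3, Serpina12, Aqp9, Wfdc21 and Slc6a14 together.

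The study prepared single cells from the back skin of 4 female C57BL/6N mice at postnatal day 19, by BD Rhapsody, with cells marked by sample tags before capture and 1 deposited matrix per mouse. The 2 control mice carried floxed CerS4 alleles without Cre (CerS4fl/flK14Cre-). The 2 CerS4epi-/- mice carried the same floxed alleles with Cre (CerS4fl/flK14Cre+), which the keratin-14 promoter drives in keratinocytes from the basal layer on, in the hair follicle as well as between follicles. Ceramide synthase 4, the product of CerS4, is one of the enzymes that join a fatty acid to a sphingoid base to make ceramide. A mouse is the replicate, and p-values below measure the spread between these mice. No sample label gives a litter or a preparation day.

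Keratinocytes of the basal layer hold Krt5 and Krt14, divide, and sit on the basement membrane. When they move up they stop dividing, replace these keratins by Krt1 and Krt10, and build many desmosomes, whose attachments give the spinous layer its name. The layer then prepares the lipids and envelope proteins that the granular layer and the cornified layer use for the skin barrier, and ceramides are a main lipid of that barrier.

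The RefSeq sequences upstream of 4 of the genes described below are shown to place these genes. Krt10 and Mt4 are markers of the layer, Hpgds is the marker that differed most between the genotypes, and Fos is one of the immediate early genes that were higher in CerS4epi-/- mice. Each is the 250 bases before the RefSeq start, 5′ to 3′ on the strand of the gene, and each was found once by exact match in GRCm39. Capitals mark TATAAA on either strand.
Krt10 (chr11:99280191-99280440, minus strand): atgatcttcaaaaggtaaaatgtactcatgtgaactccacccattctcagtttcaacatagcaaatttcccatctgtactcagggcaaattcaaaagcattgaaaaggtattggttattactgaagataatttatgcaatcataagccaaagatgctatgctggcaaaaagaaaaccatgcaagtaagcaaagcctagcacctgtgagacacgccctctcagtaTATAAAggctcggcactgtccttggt
Mt4 (chr8:94863582-94863831, plus strand): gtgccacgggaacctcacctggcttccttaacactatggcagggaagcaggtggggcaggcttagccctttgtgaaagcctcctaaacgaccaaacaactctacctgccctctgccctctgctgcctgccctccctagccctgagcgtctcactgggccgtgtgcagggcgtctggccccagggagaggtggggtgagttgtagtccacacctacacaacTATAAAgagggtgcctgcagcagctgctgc
Hpgds (chr6:65121715-65121964, minus strand): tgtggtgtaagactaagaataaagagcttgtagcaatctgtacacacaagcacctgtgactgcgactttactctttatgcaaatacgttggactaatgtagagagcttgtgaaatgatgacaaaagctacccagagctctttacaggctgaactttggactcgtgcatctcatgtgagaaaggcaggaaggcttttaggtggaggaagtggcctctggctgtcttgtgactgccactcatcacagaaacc
Fos (chr12:85520414-85520663, plus strand): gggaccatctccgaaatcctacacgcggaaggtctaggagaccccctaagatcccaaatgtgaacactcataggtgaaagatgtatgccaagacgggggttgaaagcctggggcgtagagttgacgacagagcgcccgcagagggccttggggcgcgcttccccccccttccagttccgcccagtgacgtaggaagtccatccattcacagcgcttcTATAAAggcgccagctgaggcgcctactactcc
The letters TATAAA were found in the windows of Krt10, Mt4 and Fos and not in that of Hpgds. Promoter windows, which also hold 50 bases after the start, matched 20 of 27 genes looked up, which were the markers, the genes of largest change below, Fos and Egr1. Of these 20 genes, 5 held TATAAA, which 13.6% of all 32544 windows held. None held the AP-1 letters TGANTCA, which 7.79% of all windows held. Both motifs were searched on both strands and do not overlap in their letters.

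The spinous cells numbered 2435 and 2846 in control mice 1 and 2, and 1782 and 1299 in CerS4epi-/- mice 1 and 2. A control member held a median of 4346 (mouse 1) or 3998 (mouse 2) counts, and a CerS4epi-/- member 5543.5 or 4828, so the depth per cell was higher in both CerS4epi-/- mice. The summed members amounted to 13349288 counts for control mouse 1, 14373579 for control mouse 2, 11054172 for CerS4epi-/- mouse 1 and 7220236 for CerS4epi-/- mouse 2, out of libraries of 39231945 to 53106317 counts. Levels below are counts per 1000000 counts (CPM) of these sums, so a level describes all spinous cells of a mouse together, and fewer cells with a transcript cannot be told apart from less transcript per cell in it.

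The cell barcodes set the matrices of the mice, called libraries here, apart in 1 respect. The 2 control libraries shared no barcode, also among the 95152 and 179164 barcodes with at least 1 count, and the 2 CerS4epi-/- libraries shared none either. Each control library shared 64 to 102 kept barcodes with a CerS4epi-/- library, at most 1.13% of the smaller of the libraries. Among all barcodes with at least 1 count, a control and a CerS4epi-/- library shared 14987 to 35586. The sample labels do not say which mice were captured together. Differences between captures that follow the genotype cannot be told apart from the genotype in any comparison below.

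As a share of kept barcodes, spinous cells were 28.7% and 31.3% in the control mice and 19.8% and 17.2% in the CerS4epi-/- mice. The groups did not overlap, with 30.0% ± 1.84 (SD, n = 2) in control and 18.5% ± 1.84 (SD, n = 2) in CerS4epi-/- mice. An exact two-sided permutation test gave p = 0.333, which is the smallest p that 2 mice against 2 allow. Of the interfollicular keratinocytes sorted by the same keratins into basal, transitional, spinous and granular cells, the spinous share was 40.5% and 41.8% for control mice, against 36.0% and 33.7% for CerS4epi-/- mice (exact two-sided permutation p = 0.333). On the log2 scale the ratio was thus -0.70 over all kept barcodes and -0.24 within these keratinocytes.

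**Figure D1:**
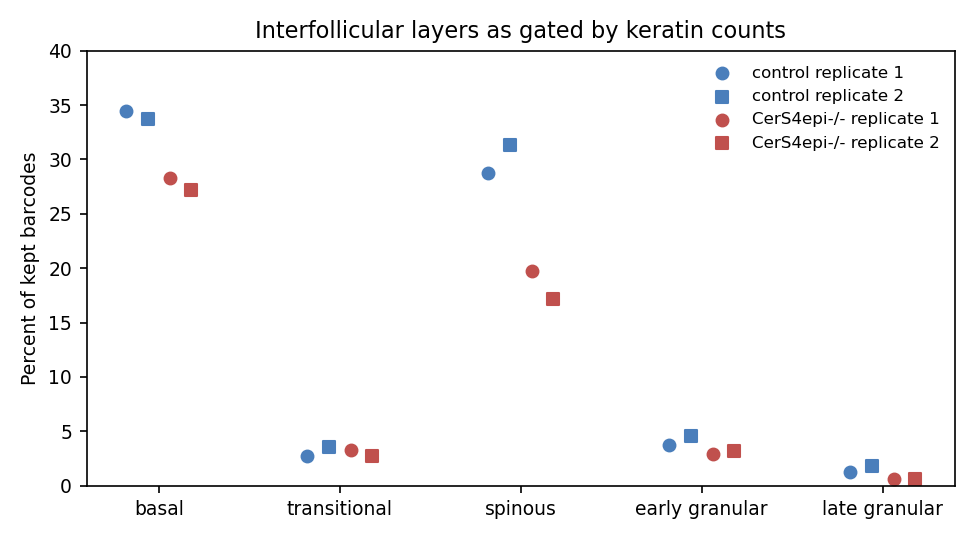
Percent of kept barcodes (y axis, from 0) in each interfollicular layer (x axis) for each mouse, controls in blue and CerS4epi-/- in red, circle for mouse 1 and square for mouse 2. In the spinous layer the control mice lie at 28.7% and 31.3% and the CerS4epi-/- mice at 19.8% and 17.2%.

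The neighbouring layers were taken with related limits. Basal cells, with Krt1 and Krt10 below 50% of Krt5 and Krt14, numbered 10601, and 1058 transitional cells lay between 50% and 200%. Early granular cells, 1242 in all, met the spinous rule except that the sum of F3, Serpina12, Aqp9, Wfdc21 and Slc6a14 was at least 5, and 381 late granular cells had at least 20 Lce1 counts. Since keratin counts drew the borders between these layers, differences between layers are given as descriptions, without a test. The edges of the rule held few cells. In each mouse 16 to 40 members had 20 to 24 counts of Krt1 and Krt10, and 9 to 23 barcodes that met every other limit had 15 to 19. Between 43 and 86 members per mouse lay just inside the keratin ratio, at 200% to 250%, and 65 to 92 barcodes lay just outside it, at 150% to 200%.

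The copied markers of the layer were checked across these layers. Mt4, a metallothionein of stratified epithelia, stood at 112 ± 7.99 CPM in spinous cells of the control mice (SD, n = 2), against 4.90 ± 0.395 in basal and 15.5 ± 0.558 in early granular cells. Hpgds, the haematopoietic prostaglandin D synthase, was likewise highest in spinous cells, with 400 ± 23.3 CPM against 17.0 ± 0.703 and 157 ± 19.8. Krt1, which the rule used, had the same order.

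The other markers were shared with the early granular layer. Alox12, a lipoxygenase acting on arachidonic acid, was at 91.2 ± 9.06 CPM in spinous and 74.0 ± 9.18 CPM in early granular cells of the control mice, against 1.46 ± 0.222 in basal cells. Skint5, of a family of immunoglobulin-like membrane proteins of the epidermis, was at 470 ± 28.0 CPM in spinous cells and 911 ± 55.6 CPM in early granular cells. Krt10 was also higher in early granular cells, at 33450 ± 353 CPM against 27700 ± 331.

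**Figure D2:**
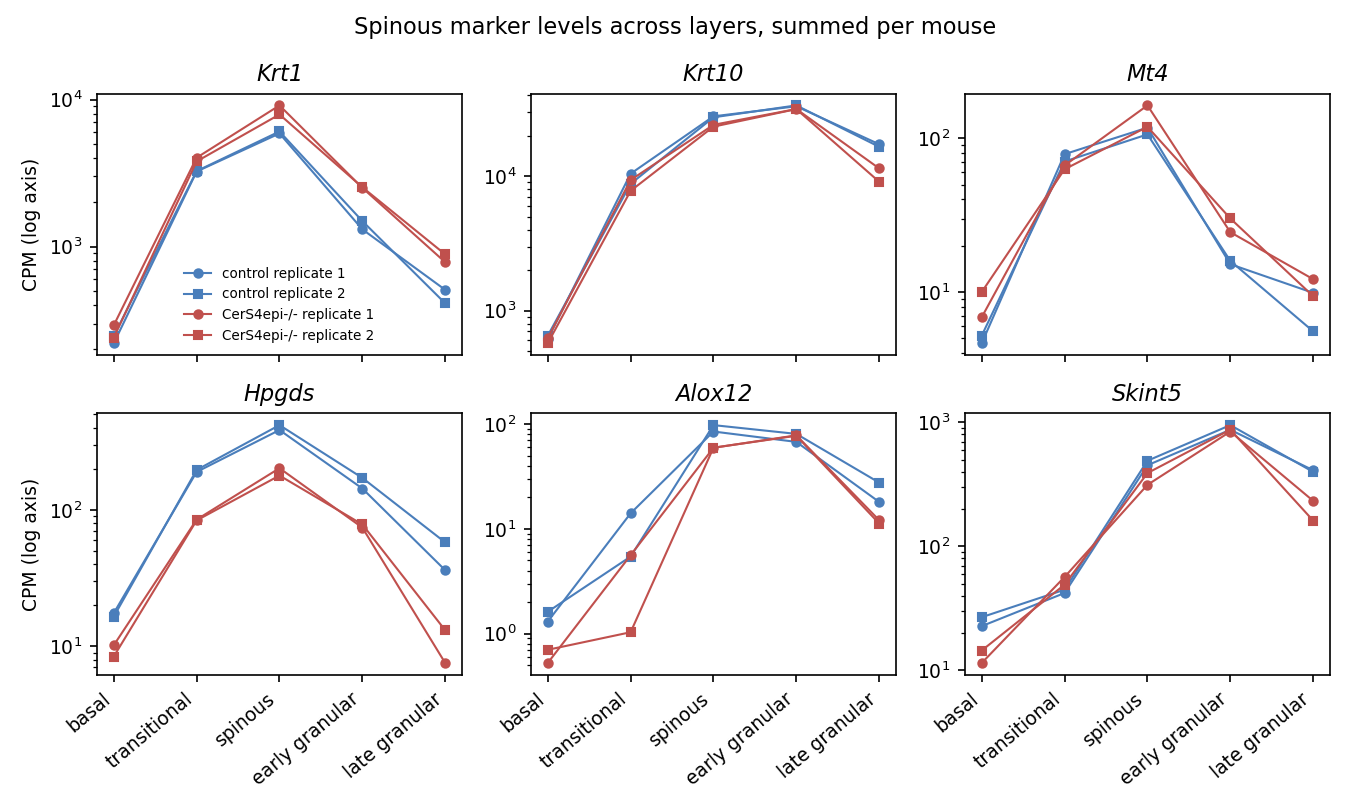
CPM (log axis) of the 6 markers, summed over the cells of each layer (x axis) in each mouse, controls in blue and CerS4epi-/- in red. Krt1, Mt4 and Hpgds are highest in spinous cells in all 4 mice, whereas Krt10 and Skint5 are highest in early granular cells.

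Genes of other layers and cell types were found in spinous cells at different levels. Flg, the filaggrin precursor of granular cells, was at 5.71 ± 0.290 CPM in the spinous cells of the control mice against 233 ± 16.2 in early granular cells. Itga6, an integrin subunit that anchors basal cells, fell from 800 CPM in basal to 151 CPM in spinous and 15.9 CPM in early granular cells. Krt15, often used as a basal keratin, was still at 4544 CPM in spinous cells. Of the T-cell markers, which had their most counts in Cd7, Cd3e was at 0.674, 2.23, 0.181 and 4.85 CPM in control mice 1 and 2 and CerS4epi-/- mice 1 and 2, and the summed level of the 12 genes was 12.8, 25.2, 7.96 and 50.4 CPM. The 8 fibroblast genes, led by Col1a1, summed to 21.8, 9.50, 7.58 and 167 CPM in the same order, so CerS4epi-/- mouse 2 stood apart in both lists.

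The genes of largest fold over basal cells in the control mice are given as a description. The 10 of largest fold with at least 50 CPM were Serpinb12, Krt78, Alox12, Hba-a1, Gm94, Sdr16c6, Ephx3, Krt10, Kctd12 and Fads2b, with folds of 76.3 to 39.9. Serpinb12, a serine protease inhibitor, rose from 1.14 CPM in basal to 86.7 CPM in spinous cells. Ephx3, an epoxide hydrolase of the pathway that makes the ceramide-bound lipids of the barrier, was at 1.73 CPM in basal, 77.3 CPM in spinous and 195 CPM in early granular cells. Hba-a1, a globin gene, stood at 2.79 CPM in basal, 157 CPM in spinous and 205 CPM in early granular cells. Foxn1, a transcription factor that starts keratinocyte differentiation, was at 68.9 CPM in spinous cells, 8.12 in basal and 14.1 in early granular cells, a gene named after its values were seen.

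The members were not uniform. Between 71.4% and 77.7% of the members of each mouse had Krt5 and Krt14 at under 5% of their 4 keratins, and 8.38% to 10.2% had 20% or more. From the lowest to the highest of these ranges in the control mice, Krt15 went from 3729 to 8685 CPM. Skint5 went the other way, from 550 to 99.9 CPM, and Alox12 from 107 to 20.9 CPM. Hpgds went from 427 to 257 CPM, whereas Mt4 stayed between 91.9 and 121 CPM. These ranges use counts of the rule and are a description.

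The deleted gene was looked at before the comparison of genotypes. Cers4 was all but absent from spinous cells of every mouse, where control mouse 1 had 4 counts in all, control mouse 2 had 3, CerS4epi-/- mouse 1 had 3 and CerS4epi-/- mouse 2 had 2, or 0.300, 0.209, 0.271 and 0.277 CPM. T cells and Langerhans cells, taken as barcodes with at least 3 counts of Cd3d, Cd3e, Cd3g, Trdc and Cd207, held 59.8, 42.6, 68.7 and 79.6 CPM. The deletion could not be checked in spinous cells at this depth. For the spinous cells, the genotype of each library is therefore taken from its label.

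Between the genotypes, edgeR's quasi-likelihood test on the sums of the 4 mice fitted 12643 genes. At an adjusted p under 0.05 (Benjamini-Hochberg over all genes fitted), 378 genes were higher and 347 lower in CerS4epi-/- spinous cells, 5.73% of the genes fitted, of which 2.99% were higher and 2.74% lower. Among these, 144 higher and 93 lower genes changed by a factor of 2 or more. The genes called include 5 of the 18 genes of the selection rule that were fitted, whose tests are not read. Both CerS4epi-/- mice lay on 1 side of both control mice for 53.6% of all genes fitted, so groups that do not overlap are common here. The median log2 fold change over all genes was 0.0035. Without CerS4epi-/- mouse 1 the counts were 227 and 169, and with every cell thinned to 1200 counts they were 142 and 82. They were 192 higher and 76 lower once members with any count of 8 genes of other cell types were left out. These were genes of T cells, Langerhans cells, sebaceous gland and bulge, and 57.1% to 58.9% of the members of each mouse were removed. Nearly all of the removal was by Scd1, listed with the sebaceous gland, of which 55.4% to 57.4% of members held a count. Scd1 was at 267.5 and 288.6 CPM in control and 208.7 and 228.5 CPM in CerS4epi-/- spinous cells. A count of it therefore does not mark a member as mixed with another cell type.

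The rise of largest size among genes at 50 CPM or more was in Cstdc5 (GRCm39 chr16:36179743-36191595, minus strand), one of a cluster of stefin genes for inhibitors of cysteine proteases. Its level was 27.3 and 24.7 CPM in the control mice and 403 and 201 CPM in the CerS4epi-/- mice (log2 fold change 3.54 ± 0.30 SE, edgeR adjusted p = 0.00112). The groups lay far apart, and the share of members with a count went from 8.83% and 8.01% to 54.9% and 40.2%. The stefins and the Serpina3 genes have near-identical neighbours among which the authors' counting shared reads, so the level of a given copy is uncertain. Serpina3j, a serine protease inhibitor, was at 8.54 and 14.2 CPM in control and 60.0 and 214 CPM in CerS4epi-/- mice (3.54 ± 0.54, edgeR adjusted p = 0.00884). Its groups did not overlap either, although the CerS4epi-/- mice differed from each other more than the control mice did. Without CerS4epi-/- mouse 1 the log2 fold changes were 2.93 for Cstdc5 and 4.20 for Serpina3j, and without CerS4epi-/- mouse 2 that of Serpina3j was 2.40.

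Cd44 (chr2:102641486-102732010, minus strand), the receptor for hyaluronan, was at 48.2 and 44.7 CPM in the control mice and 141 and 118 CPM in the CerS4epi-/- mice (log2 fold change 1.48 ± 0.11 SE, edgeR adjusted p = 0.000623). Ovol1 (chr19:5599164-5610674, minus strand), a transcription factor of keratinocyte differentiation, was at 247 and 194 CPM in control and 438 and 464 CPM in CerS4epi-/- mice (1.03 ± 0.11, edgeR adjusted p = 0.00211). In both genes every CerS4epi-/- mouse lay above every control mouse, and neither lost its call under any of the 17 alternatives computed. Krt17, a keratin of the hair follicle and of stressed epidermis, went from 47.6 and 55.2 CPM to 99.1 and 97.2 CPM (0.93 ± 0.09, edgeR adjusted p = 0.00193).

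The other rises among the 10 of largest size at 50 CPM or more were in Pyy, the gene of a gut peptide hormone, Slc6a6, the taurine transporter, Slc39a8, a zinc importer, Ddr2, a collagen receptor, and Odc1, the first enzyme of polyamine synthesis. Their log2 fold changes ran from 0.91 for Odc1 to 1.67 for Pyy. Slc6a6 was at 27.7 and 47.0 CPM in control and 68.5 and 133 CPM in CerS4epi-/- mice, and without CerS4epi-/- mouse 2, or with DESeq2, it did not pass. Ddr2 did not pass under the same changes, or without members that held counts of other cell types.

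The largest fall at that level was in Igfbp3 (chr11:7156086-7164179, minus strand), which binds insulin-like growth factors outside the cell. It was at 114 and 86.6 CPM in the control mice and 17.0 and 10.7 CPM in the CerS4epi-/- mice (log2 fold change -2.82 ± 0.20 SE, edgeR adjusted p = 0.000607), with a wide gap between the groups. Within the control mice Igfbp3 followed the basal keratins, from 80.7 CPM in members with the least Krt5 and Krt14 to 232 CPM in those with the most, and in CerS4epi-/- mice it was between 9.58 and 20.9 CPM in each of the 4 ranges. Ifitm6, of the family of interferon-induced membrane proteins, was at 173 and 217 CPM in control and 48.9 and 67.3 CPM in CerS4epi-/- mice (-1.77 ± 0.15, edgeR adjusted p = 0.00112). Over the 17 alternatives its log2 fold change ran from -1.98 to -0.93.

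Hpgds (chr6:65094001-65121983, minus strand) was the spinous marker with the largest change. It was at 384 and 417 CPM in the control mice and at 202 and 178 CPM in the CerS4epi-/- mice (log2 fold change -1.08 ± 0.09 SE, edgeR adjusted p = 0.00112). The groups were clearly apart, and Hpgds was lower in CerS4epi-/- mice in each of the 4 keratin ranges and in each of the 5 layers. It kept its call under all 17 alternatives, with log2 fold changes from -1.20 to -0.98. T cells and Langerhans cells also hold Hpgds, at 496 and 443 CPM in control and 313 and 339 CPM in CerS4epi-/- mice. In spinous cells the T-cell gene Cd3g was at 1.35 and 1.60 CPM in control and 0.543 and 5.54 CPM in CerS4epi-/- mice, and the Langerhans cell gene Cd207 at 1.72 and 2.64 CPM and at 1.27 and 0.139 CPM. The part of these cells in the Hpgds levels was not tested.

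Alox12 was at 84.8 and 97.6 CPM in control and 59.4 and 59.4 CPM in CerS4epi-/- spinous cells (log2 fold change -0.63 ± 0.09 SE, edgeR adjusted p = 0.00789), a call lost with thinned cells and without members with upper hair follicle counts (values up to -0.36). Skint5 was at 451 and 490 CPM in control and 313 and 390 CPM in CerS4epi-/- mice (-0.43 ± 0.10, edgeR adjusted p = 0.0433). Its call was lost under 8 of the alternatives, among them leaving out control mouse 2 or CerS4epi-/- mouse 1, with values up to -0.04. For both genes the groups did not overlap. Mt4 was at 118 and 106 CPM in control and 164 and 119 CPM in CerS4epi-/- mice, and this difference did not pass the test (0.34 ± 0.14, edgeR adjusted p = 0.203).

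The keratins of the rule are given as levels. Krt1 was at 5882 and 6064 CPM in the control mice and 9123 and 7919 CPM in the CerS4epi-/- mice, and Krt10 at 27940 and 27470 CPM and at 24150 and 23420 CPM. Of the other suprabasal keratins, Krt77 was at 17070 and 16440 CPM and at 13000 and 14200 CPM, and it did not pass (log2 fold change -0.31 ± 0.08 SE, edgeR adjusted p = 0.0690).

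The further falls among the 10 largest were in Kctd12, an auxiliary subunit of GABA-B receptors, Tspan8, a tetraspanin, Tesc, a calcium-binding protein, Nupr1, a stress-induced nuclear protein, Krt23, Crabp2, which binds retinoic acid, and the histone gene H2bc4. Their log2 fold changes ran from -1.06 for Kctd12 to -0.79 for H2bc4. Kctd12 was at 321 and 301 CPM in control and 132 and 169 CPM in CerS4epi-/- mice. The call of Krt23 was lost under 6 of the alternatives, among them leaving out CerS4epi-/- mouse 1, with values up to -0.04. The calls of Crabp2 and Tspan8 were each lost under 3, that of Nupr1 under 2, and those of Tesc and H2bc4 under 1, whereas Kctd12 kept its call under all 17. Values over the alternatives went up to -0.32 for Crabp2, -0.61 for Tspan8, -0.48 for Nupr1, -0.51 for Tesc, -0.53 for H2bc4 and -0.48 for Kctd12.

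**Figure D3:**
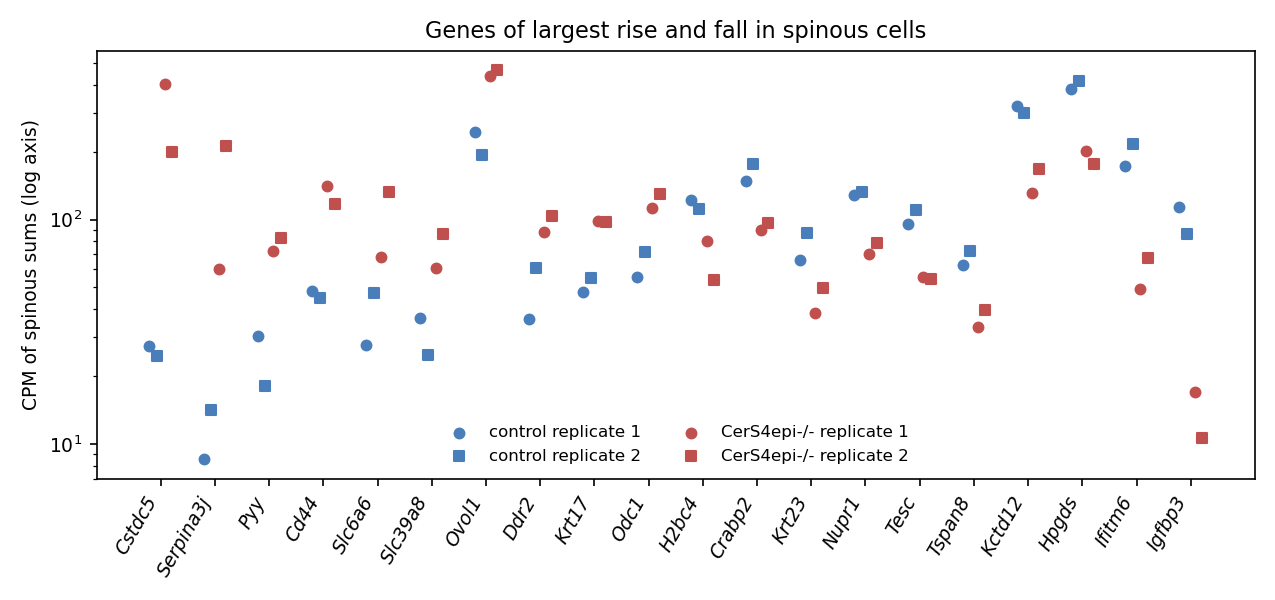
CPM of the spinous sums (log axis) in each mouse for the 10 genes of largest rise and the 10 of largest fall with at least 50 CPM, ordered by fold change, controls in blue and CerS4epi-/- in red. For each gene both CerS4epi-/- mice lie on the same side of both controls, as the choice of genes required.

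The listed genes were grouped by function, in lists chosen with earlier results of these data known, and no set test was run. The counts below stand beside 5.73% called over all genes fitted, 2.99% higher and 2.74% lower. Of 35 immediate early and heat shock genes fitted, 14 were higher and 1 lower, with a median log2 fold change of 0.40 against 0.0035 over all genes. These genes answer within minutes to growth factors, stress and cell isolation. More CerS4epi-/- than control barcodes exceeded 20% mitochondrial counts, 363 and 316 against 68 and 91. The median mitochondrial share of spinous cells was 8.56% and 8.57% in control and 9.35% and 8.97% in CerS4epi-/- mice. With a limit of 10% mitochondrial counts 15 members of the list were higher. Such a limit cannot separate a response to cell isolation from the genotype, and the part of isolation was not tested. Egr1, a zinc finger transcription factor, was at 981 and 699 CPM in control and 1345 and 1690 CPM in CerS4epi-/- mice (0.84 ± 0.15 SE, edgeR adjusted p = 0.0189), which did not pass with DESeq2. Fos, a part of AP-1, was at 2576 and 2004 CPM in control and 3650 and 3701 CPM in CerS4epi-/- mice (0.68 ± 0.11, edgeR adjusted p = 0.0133). In both genes the groups did not overlap, although control mouse 1 lay above control mouse 2. Ier5, an immediate early response gene, was at 30.9 and 33.1 CPM in control and 53.3 and 73.3 CPM in CerS4epi-/- mice (0.96 ± 0.14, edgeR adjusted p = 0.00645). The dual specificity phosphatase genes Dusp1 and Dusp6, whose products turn off MAP kinases, rose by 0.78 and 1.13.

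The member of this list that was lower was the chaperone gene Hsp90aa1, at 443 and 311 CPM in control and 244 and 221 CPM in CerS4epi-/- mice (-0.70 ± 0.15, edgeR adjusted p = 0.0309). DESeq2 gave 9 higher and 0 lower members of the list, so this call was lost there. The other heat shock genes fitted did not pass. Fos was also higher in control basal cells (3790 CPM) than in control spinous cells (2290 CPM). With 1 mouse left out, 8 to 20 members of the list were higher, the lowest of these counts without control mouse 2 and without CerS4epi-/- mouse 1.

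Of 14 stress keratins and alarmins fitted, 6 were higher and 1 lower, with a median of 0.40. Krt16, a partner of the wound keratin Krt6a, was at 26.2 and 18.2 CPM in control and 70.7 and 38.5 CPM in CerS4epi-/- mice (1.32 ± 0.27 SE, edgeR adjusted p = 0.0271), a call lost under 5 alternatives, among them DESeq2 and leaving out CerS4epi-/- mouse 1. The chemokine gene Cxcl1, whose product draws neutrophils, was at 2.02 and 2.51 CPM and at 9.95 and 14.4 CPM (2.38 ± 0.24, edgeR adjusted p = 0.00193). In both the groups were apart, but Cxcl1 was at a low level. Ccl20, the ligand of CCR6, went from 1.95 and 2.44 CPM to 12.9 and 4.16 CPM (2.03 ± 0.46, edgeR adjusted p = 0.0411), and turned to -0.51 without members that held a count of 6 upper hair follicle genes. This call was also lost without CerS4epi-/- mouse 1 (0.89), with DESeq2, with thinned cells and with members chosen on thinned cells. Without CerS4epi-/- mouse 1, and also without the members with such counts, 3 genes of this list were higher. Il33, an alarmin stored in nuclei, was the lower member, at 11.2 and 12.5 CPM in control and 4.57 and 4.48 CPM in CerS4epi-/- mice (-1.41 ± 0.17, edgeR adjusted p = 0.00314).

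Some markers of the upper hair follicle were also higher. Of 10 upper hair follicle genes fitted outside the rule, 3 were higher and 1 lower with a median of 0.67, and the 12 listed genes summed to 459, 508, 618 and 662 CPM in control mice 1 and 2 and CerS4epi-/- mice 1 and 2, with Cst6, which the rule limited, the gene with most counts. Since the rule limited that gene, the sum is a level from which nothing is read. Defb6, a beta-defensin, was at 14.3 and 11.1 CPM in control and 44.5 and 44.8 CPM in CerS4epi-/- mice (1.81 ± 0.13 SE, edgeR adjusted p = 0.000607). Aldh3a1, an aldehyde dehydrogenase, was at 12.9 and 17.5 CPM and at 59.3 and 43.9 CPM (1.77 ± 0.18, edgeR adjusted p = 0.00193). The groups lay apart in both. Krt23 was the lower gene.

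The rule limited Krt79 and Cst6 without setting them to 0. After leaving out every member with a count of Krt79, Krt17, Cst6, Defb6, Klk10 or Plet1, 1222 and 1482 control and 648 and 468 CerS4epi-/- members were left. Among these, 141 genes were higher and 70 lower. The immediate early list then had 12 higher members. Of the named genes above, Cstdc5 (4.22), Serpina3j (3.42), Cd44 (1.20), Ovol1 (1.06) and Igfbp3 (-3.62) passed there with the log2 fold changes given, and Hpgds passed too. Krt17 and Defb6 were themselves higher in CerS4epi-/- mice, so the genotype difference partly decided which members were left out. The calls in this setting are therefore given as a description.

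Differentiation factors rose in part. Of 30 fitted, 7 were higher and 1 lower, with a median of 0.21. Besides Ovol1, these were Barx2, Id1, Id3, Ehf, Elf3 and the vitamin D receptor gene Vdr. Ehf, an epithelial ETS factor, was at 4.05 and 3.13 CPM in control and 15.8 and 15.2 CPM in CerS4epi-/- mice (2.11 ± 0.17 SE, edgeR adjusted p = 0.00110), and Id1, an inhibitor of helix-loop-helix factors, at 52.4 and 54.7 CPM and at 84.1 and 102 CPM (0.78 ± 0.10, edgeR adjusted p = 0.00369). For both the groups did not overlap. Hopx was the lower member, at 311 and 264 CPM in control and 206 and 202 CPM in CerS4epi-/- mice. Klf4, which drives barrier formation, was at 1548 and 1485 CPM and at 1838 and 1845 CPM, and this did not pass (0.27 ± 0.07, edgeR adjusted p = 0.0659).

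Receptors and ligands showed changes in both directions. Of 17 Notch genes, 3 were higher and 1 lower. Notch1, the receptor that drives spinous differentiation, was at 153 and 164 CPM in control and 230 and 232 CPM in CerS4epi-/- mice (0.53 ± 0.07 SE, edgeR adjusted p = 0.00578), with no overlap. The ligand gene Jag1 and the fringe gene Rfng were also higher and the ligand gene Dll1 lower, calls that were lost under 8 to 13 alternatives. The target gene Hes1 was at 375 and 403 CPM and at 482 and 849 CPM, which did not pass.

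Of 12 genes of the EGF family, the receptor gene Erbb3 and the ligand genes Tgfa and Epgn were higher. Tgfa lost its call under 9 of the 17 alternatives, among them leaving out control mouse 1 or either CerS4epi-/- mouse. Epgn lost its call under 3, with values down to 0.12. The ligand gene Btc, at 11.3 and 13.1 CPM in control and 5.34 and 5.68 CPM in CerS4epi-/- mice, was lower (-1.16 ± 0.16 SE, edgeR adjusted p = 0.00641). Of 30 Wnt, BMP and TGF-beta genes, Bmp7 (1.19) and Tgfbr2 (0.71) were higher, and Wnt3a and Bmp2 lower, the call of Bmp2 being lost under 5 alternatives, among them leaving out control mouse 1 or CerS4epi-/- mouse 1.

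Enzymes of lipid mediators were mostly lower where they passed. Of 25 lipoxygenase and prostaglandin genes fitted, 5 were lower and 2 higher, with a median of -0.21. Besides Hpgds and Alox12 the lower genes were Alox12e, Cbr2 and Ephx3. Alox12e was at 635 and 527 CPM in control and 384 and 420 CPM in CerS4epi-/- mice (-0.54 ± 0.10 SE, edgeR adjusted p = 0.0181), and Cbr2, a carbonyl reductase, at 11.4 and 10.2 CPM and at 3.89 and 2.77 CPM (-1.66 ± 0.20, edgeR adjusted p = 0.00351). The groups did not overlap in either gene. Ptges, the synthase of prostaglandin E, was higher, at 53.6 and 55.9 CPM in control and 89.3 and 87.1 CPM in CerS4epi-/- mice (0.68 ± 0.08, edgeR adjusted p = 0.00290), and so was the phospholipase gene Pla2g4f.

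Ceramide and sphingolipid genes gave 6 lower and 1 higher of 46 fitted, with a median of -0.02. At an unadjusted p under 0.05, 12 were lower and 9 higher, and DESeq2 gave 4 lower and 0 higher. Sptlc3, a subunit of serine palmitoyltransferase, which starts sphingolipid synthesis, was at 263 and 267 CPM in control and 169 and 178 CPM in CerS4epi-/- mice (-0.62 ± 0.07 SE, edgeR adjusted p = 0.00278), and Sptssa, its small subunit, at 570 and 566 CPM and at 416 and 381 CPM (-0.52 ± 0.08, edgeR adjusted p = 0.00911). Every CerS4epi-/- mouse lay below every control mouse in both. The ceramidase genes Acer1 (-0.41) and Acer3 (-0.50), whose calls were each lost under 4 alternatives including leaving out control mouse 2, and for Acer3 CerS4epi-/- mouse 1, Ormdl2, a regulator of the first step, and the sphingosine kinase gene Sphk2 were also lower, and the fatty acid elongase gene Elovl7 higher; the last 3 did not pass DESeq2.

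The other ceramide synthases did not pass the test. Cers3, the synthase of the barrier ceramides, was at 67.8 and 61.6 CPM in control and 66.5 and 64.0 CPM in CerS4epi-/- mice (0.01 ± 0.09 SE, edgeR adjusted p = 0.973), with overlapping groups. Cers6 was at 69.4 and 60.9 CPM and at 64.6 and 64.6 CPM (-0.02 ± 0.09, edgeR adjusted p = 0.932), also with overlap. Cers5 and Cers2 were low and did not pass either.

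The Skint genes, neighbours on 1 chromosome and named after a gene that guides the T cells of the epidermis, gave 5 lower and none higher of 11 by edgeR's test, with a median of -0.23. With an unadjusted p under 0.05, 2 were higher, and DESeq2 called none higher. Skint10 was at 261 and 281 CPM in control and 157 and 185 CPM in CerS4epi-/- mice (-0.68 ± 0.09 SE, edgeR adjusted p = 0.00469). Skint3 was at 310 and 304 CPM and at 206 and 231 CPM (-0.50 ± 0.08, edgeR adjusted p = 0.00911). The groups were apart in both. Neither passed without members with counts of other cell types or of upper hair follicle genes, where values went up to -0.30 for Skint10 and -0.19 for Skint3. Skint1, the gene the family is named after, was at 65.1 and 74.0 CPM and at 79.4 and 81.4 CPM, which did not pass (0.20 ± 0.09, edgeR adjusted p = 0.221). The family is made of close copies, so its counts depend on how shared reads were divided, and with 1 mouse left out 2 to 4 members were lower, 2 of them without CerS4epi-/- mouse 1.

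Of 15 desmosome genes fitted, none passed edgeR's test at an adjusted p under 0.05 or DESeq2, and 3 had an unadjusted p under 0.05. The desmosome genes Dsg1a (2042 and 2120 CPM in control against 1834 and 2049 CPM in CerS4epi-/- mice), Dsp (3898 and 4021 against 3700 and 4005) and Perp (5379 and 5472 against 5411 and 5721), for a cadherin, a plaque protein and a membrane protein of this junction, had overlapping groups. None of 38 nuclear respiratory chain genes and none of 26 cell cycle genes passed with edgeR or DESeq2, and 6 of each had an unadjusted p under 0.05. Of 25 cornified envelope genes outside the rule, Flg was higher, at 5.92 and 5.51 CPM in control and 14.5 and 14.3 CPM in CerS4epi-/- mice (1.33 ± 0.14 SE, edgeR adjusted p = 0.00232; 1.10 and 0.142 without members with upper hair follicle counts, where the call was lost), and Flg2 lower (-0.56 ± 0.10, edgeR adjusted p = 0.0189). The call of Flg2 was lost under 5 alternatives, among them leaving out CerS4epi-/- mouse 1, with values up to -0.14. The abundant envelope genes Krtdap, at 12240 and 12950 CPM in control and 10530 and 10940 CPM in CerS4epi-/- mice, and Sbsn did not pass. With 8.0% of the envelope genes called, the share was near the 5.73% over all genes fitted.

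Of 36 actin cytoskeleton genes, 7 were lower and 4 higher, with a median of -0.07. Cnn3, a calponin, was at 66.8 and 69.2 CPM in control and 38.9 and 47.6 CPM in CerS4epi-/- mice (-0.67 ± 0.10 SE, edgeR adjusted p = 0.00847), and stood at 0.15 once members with counts of other cell types were left out. Msn, which links actin to the membrane, was higher (1.04 ± 0.16, edgeR adjusted p = 0.00900). With 1 mouse left out, 2 or 3 genes of this list were lower.

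**Figure D4:**
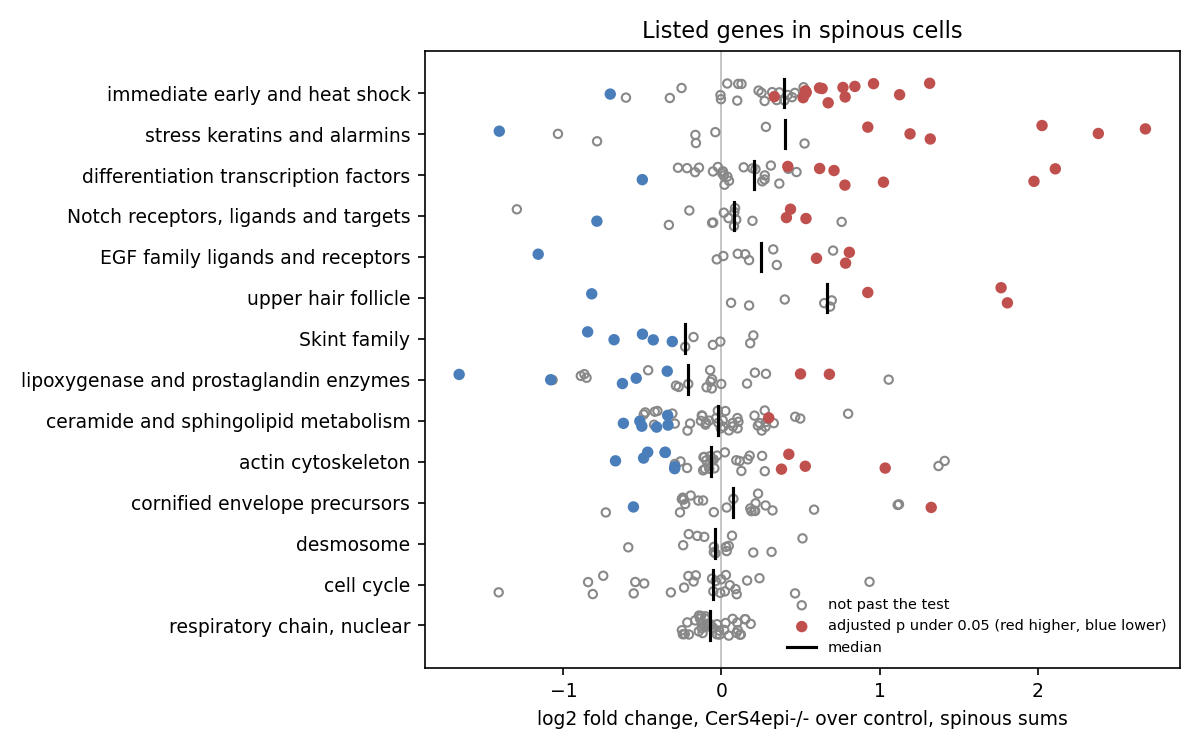
Log2 fold change (x axis, CerS4epi-/- over control, spinous sums) of every fitted gene outside the rule in 14 lists (rows), filled where the adjusted p was under 0.05, with the median as a bar. Immediate early and stress genes lie mostly right of 0 (medians 0.40 and 0.40), Skint and lipoxygenase genes mostly left of it (medians -0.23 and -0.21).

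Whether the genotype effect in spinous cells differed from that of their neighbours was tested as the interaction of genotype and layer over the same 4 mice. Against basal cells, 419 of 13160 genes (3.18%) differed at an adjusted p under 0.05, 176 with a more positive and 243 with a more negative effect in spinous cells. Against early granular cells, 131 of 11830 genes (1.11%) differed, 19 more positive and 112 more negative. Genes of the selection rule, Krt1 among them, are included in both counts, and their tests are not read. DESeq2 gave 30 and 60 genes against basal cells and 3 and 50 against early granular cells. A limit of 10% mitochondrial counts gave 42 and 49 against basal cells and 12 and 40 against early granular cells, and the counts against basal cells were 104 and 119 without control mouse 1 and 49 and 68 without control mouse 2. Against early granular cells, 38, 47 and 44 genes were more positive without control mouse 1, control mouse 2 and CerS4epi-/- mouse 2, and 32 and 261 were more negative without CerS4epi-/- mouse 1 and CerS4epi-/- mouse 2.

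For several of the largest changes no difference between spinous and basal cells passed this test. The effect on Cstdc5 was 3.54 in spinous and 3.71 in basal cells (difference -0.16 ± 0.15 SE, edgeR adjusted p = 0.686), that on Ovol1 was 1.03 and 1.00 (0.04 ± 0.12, edgeR adjusted p = 0.932), and that on Hpgds was -1.08 and -0.80 (-0.28 ± 0.14, edgeR adjusted p = 0.367). Egr1 was higher in basal cells by 0.56 and in early granular cells by 0.80. Cd44 differed, with 1.48 in spinous and 0.74 in basal cells (0.73 ± 0.09, edgeR adjusted p = 0.000169), and so did Igfbp3, with -2.82 and -2.07 (-0.78 ± 0.11, edgeR adjusted p = 0.000453). Of the other largest rises and falls, Serpina3j, Pyy, Slc6a6, Slc39a8, Odc1, Kctd12, Krt23, Crabp2 and H2bc4 also differed from basal cells in this test. Ddr2, Krt17, Ifitm6, Tspan8, Tesc and Nupr1 did not.

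Genes of opposite direction stood among the largest differences from basal cells. Alox12e was at 40.6 and 24.6 CPM in control basal cells and 90.3 and 138 CPM in CerS4epi-/- basal cells, a log2 change of 1.86 where spinous cells fell by 0.54 (difference -2.39 ± 0.14 SE, edgeR adjusted p = 4.31e-08). Crabp2 fell in spinous cells (-0.82), and its basal value of 0.83 did not pass. Against early granular cells, the 112 genes with a more negative effect included Alox12, whose effect was -0.63 in spinous and 0.07 in early granular cells (-0.70 ± 0.12, edgeR adjusted p = 0.00794). Kctd12 was lower in spinous cells by more than in either neighbour, with -1.06 against -0.06 in basal (adjusted p = 0.00199) and -0.20 in early granular cells (adjusted p = 0.000312).

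**Figure D5:**
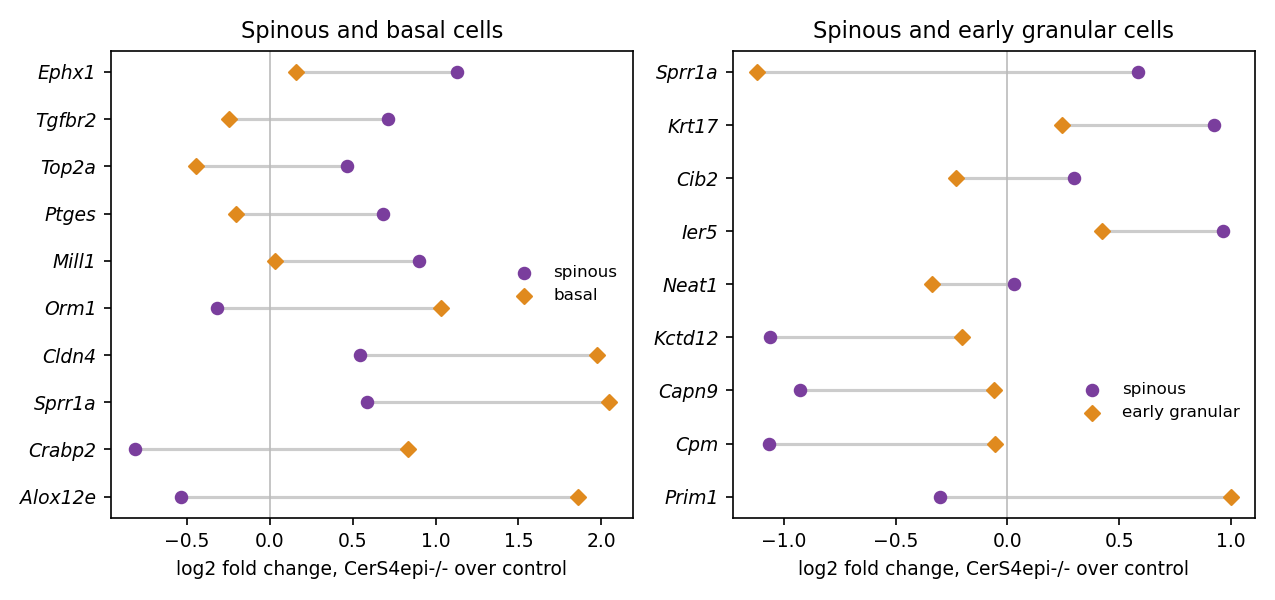
Log2 fold change (x axis, CerS4epi-/- over control) in spinous cells (purple circles) and in basal or early granular cells (orange diamonds) for genes of largest difference against each neighbour (rows). Alox12e lies at -0.54 in spinous and 1.86 in basal cells.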

How the data were processed

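Single cells from the back-skin epidermis of 4 mice were measured with BD Rhapsody, which captures cells in microwells and tags transcripts with molecular identifiers. The deposited values are estimated counts per gene and barcode: the authors trimmed reads with fastp 0.23.2, mapped them with STAR 2.7.10a to GRCm39 (Gencode vM29, protein-coding genes and lncRNAs), divided reads shared between genes by expectation maximization, and removed no barcodes. Between 4.54% and 4.81% of entries were therefore not whole numbers.

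A barcode was kept from 1200 counts upward if mitochondrial genes took no more than 20% of them. Counts of the members were summed per mouse, rounded, and fitted across all genes with edgeR 4.0.16 (R 4.3.3; filterByExpr, TMM, quasi-likelihood test, Benjamini-Hochberg). Differences between layers were fitted as genotype by layer with the mouse as a block. Plain CPM is the rounded sum over all counts of that mouse. Shares were compared by exact permutation with scipy 1.17.1. The scripts were tested on simulated counts. The study split pooled cells into pseudoreplicates instead.

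Members and gene lists were chosen with earlier results of these data known. Genes were named by rule: the markers; the 10 largest rises and falls past the threshold with at least 50 CPM and groups apart, without genes of the selection rule; up to 4 members of each list at 5 CPM or more, with its abundant members; the 5 largest differences from each neighbouring layer in each direction; and the leading genes over basal cells. A few genes that this rule names are not reported here. Genes named besides these were chosen after their values were seen. No doublet caller was run; leaving out the 5% of members with the most counts was an alternative. Other alternatives were DESeq2 1.42.0, its size factors, no filter on low counts, each mouse left out, a replicate block, stricter cell limits, thinned counts, equal cell numbers, and members without counts of other cell types. Leaving out members with upper hair follicle counts, and choosing members on thinned cells, were added after seeing the data. Coordinates are GRCm39 (Gencode vM39), and promoter sequences are from RefSeq (GRCm38.p6).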

Additional observations from a re-analysis of the deposited data

Results flagged for a closer look

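The genotype effect differed between spinous cells and a neighbouring layer, by the edgeR test of genotype by layer, for the genes named here, which are among those of largest difference in each direction. A positive difference means a higher log2 fold change of CerS4epi-/- over control in spinous cells than in the neighbour.

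Against basal cells, the positive differences were 0.98 for Ephx1, an epoxide hydrolase of detoxification, 0.94 for Tgfbr2, a TGF-beta receptor, 0.91 for Top2a, a topoisomerase of dividing cells, 0.88 for Ptges and 0.86 for Mill1. Ephx1 was at 16.1 and 16.8 CPM in control and 37.5 and 34.6 CPM in CerS4epi-/- spinous cells, and Top2a did not pass within spinous cells. The negative differences were -2.39 for Alox12e, -1.64 for Crabp2, -1.44 for Sprr1a, a cornified envelope precursor, -1.41 for Cldn4, a claudin, and -1.37 for Orm1, an acute phase protein. Of these, Sprr1a and Cldn4 had log2 fold changes of 0.59 and 0.54 in spinous cells and 2.05 and 1.97 in basal cells, and neither difference passed with DESeq2.

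Against early granular cells, the positive differences were 1.81 for Sprr1a, 0.67 for Krt17, 0.53 for Cib2, 0.53 for Ier5 and 0.36 for Neat1. Of these calls, that of Ier5 was lost under 6 of 8 alternatives (each mouse left out among them), that of Neat1 under 5 of 8 (without control mouse 1, control mouse 2 or CerS4epi-/- mouse 1 among them) and that of Cib2 under 4 of 7 (without control mouse 2 or either CerS4epi-/- mouse among them). The negative differences were -1.32 for Prim1, a DNA primase subunit, -1.02 for Cpm, a carboxypeptidase, -0.88 for Capn9, a calpain, and -0.87 for Kctd12. The call of Capn9 was lost under 4 of 8 alternatives, among them leaving out control mouse 2 or CerS4epi-/- mouse 1.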

How the results depend on the processing

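The main counts were 378 genes higher and 347 lower. DESeq2 called 223 and 236, no filter on low counts gave 782 and 839, thinned cells 142 and 82, members without counts of other cell types 192 and 76, and members without upper hair follicle counts (chosen after seeing the data) 141 and 70. Leaving out 1 mouse gave 227 to 362 higher and 169 to 309 lower. The replicate block gave 799 and 722; the labels give only a number, the deviations of the mice numbered 1 correlated at r = 0.12 over 7917 genes, and 2 pairs do not settle whether the numbers pair the mice. Against basal cells, where 176 differences were positive and 243 negative, DESeq2 gave 30 and 60, a 10% mitochondrial limit 42 and 49, no filter 284 positive, and leaving out 1 mouse 49 to 170 and 68 to 239. Against early granular cells, from 19 and 112, DESeq2 gave 3 and 50, the mitochondrial limit 12 and 40, no filter 67 and 242, and leaving out 1 mouse 13 to 47 and 32 to 261. The log2 ratio of shares was -0.24 within interfollicular keratinocytes and -0.81 to -0.60 with 1 mouse left out.

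Of 81 named genes past the threshold, 65 kept their call with DESeq2, 44 with thinned cells, and 56 to 71 with 1 mouse left out. The 81 include Krt1, a gene of the selection rule whose test is not read. The calls of Cbr2, Btc, Tgfbr2 and Gjb5 were each lost under 2 alternatives, and those of Id1, Il33, Elf3, Ier3 and Sptlc3 under 1. Without members with upper hair follicle counts 40 of 79 named genes kept their call, and without members with counts of other cell types 47 of 80. Direction reversed for Ccl20 (-0.51) without members with upper hair follicle counts, and for Cnn3 (0.15) and Klk5 (0.26) without members with counts of other cell types. The last 2 settings also reduce cells and depth, that for other cell types mostly through Scd1. The cause was not tested. Genes near 1 CPM rest on few counts, and the number of mice sets the precision of every test.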

Other observations

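Further listed groups were tested with edgeR in spinous cells, where 5.73% of all genes fitted were called. The share called was 16.7% of circadian, 14.8% of glutathione and NRF2, 7.41% of cholesterol and 11.1% of connexin and tight junction genes. It was 9.09% of Langerhans cell, 40.0% of bulge and 7.69% of mitochondrial genome genes. Of 18 circadian genes fitted, 3 were higher and none lower (none lower also at an unadjusted p under 0.05 or with DESeq2). Hlf, a clock output factor, was at 135 and 147 CPM in control and 183 and 199 CPM in CerS4epi-/- mice (log2 fold change 0.43 ± 0.08 SE, edgeR adjusted p = 0.0182), and Tef and Bhlhe40 were the others. Under the 17 alternatives, the calls of Hlf, Tef and Bhlhe40 were lost in 4, 9 and 8, among them leaving out control mouse 1 for Hlf and Tef, control mouse 2 for Bhlhe40, CerS4epi-/- mouse 1 for Tef and Bhlhe40, and CerS4epi-/- mouse 2 for Tef. The log2 fold change of Hlf went down to 0.13 over these alternatives. Of 27 glutathione and NRF2 genes, 3 were higher and 1 lower. Gsto1, a glutathione transferase, was at 113 and 104 CPM in control and 186 and 173 CPM in CerS4epi-/- mice (0.72 ± 0.08, edgeR adjusted p = 0.00278), and Txnrd1, thioredoxin reductase, was lower, a call lost under 5 alternatives, among them leaving out control mouse 2 or CerS4epi-/- mouse 1. Of 27 cholesterol genes, Fdps, an enzyme of isoprenoid synthesis, was lower at 206 and 215 CPM against 135 and 153 CPM (-0.56 ± 0.08, edgeR adjusted p = 0.00631), a call lost under 4 alternatives.

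Of 18 connexin and tight junction genes, Gjb5, a connexin, was lower at 308 and 315 CPM in control against 228 and 240 CPM in CerS4epi-/- mice (-0.42 ± 0.07 SE, edgeR adjusted p = 0.0129), and Cldn4 was higher, a call lost without control mouse 2 or CerS4epi-/- mouse 2. Epcam, an adhesion molecule listed here with Langerhans cells, was at 74.5 and 80.8 CPM in control and 123 and 146 CPM in CerS4epi-/- mice (0.77 ± 0.09, edgeR adjusted p = 0.00342), while the other 10 Langerhans cell genes fitted did not pass. Of 10 bulge genes fitted, Postn, Sox9, Nfatc1 and Krt6a were higher and 0 lower. Postn rested on 117 counts, at 0.974 and 1.11 CPM in control and 6.24 and 2.63 CPM in CerS4epi-/- mice. At an unadjusted p under 0.05 in edgeR's test, 5 bulge genes were higher and 2 lower. Both CerS4epi-/- mice lay above both control mice for 5 of the 10 and below them for 3. The call of Nfatc1 was lost under 10 of the 17 alternatives (down to 0.12; without either control mouse or CerS4epi-/- mouse 1 among them), that of Sox9 under 3 and that of Krt6a under 2, both among them without CerS4epi-/- mouse 1. The 13 genes of the mitochondrial genome summed to 79680, 80750, 90050 and 85680 CPM in control mice 1 and 2 and CerS4epi-/- mice 1 and 2.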
